A study of Arabidopsis thaliana with 9 samples.

Results

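The genes described are the UDP-dependent glycosyltransferases (UGT) and the glutathione S-transferases (GST) of Arabidopsis thaliana, followed across wild-type Col-0 seedlings and seedlings of the mutants ssrp1-2 and spt16-1. A gene was taken where a probe set named it alone and its symbol began with UGT and a number, or with GSTU, GSTF, GSTL, GSTT or GSTZ. A leading AT was allowed, as in ATGSTF13. UGT78D1, UGT78D2 and UGT73C6 were left out by the rule. This gave 63 genes of the 16542 gene symbols that a probe set named alone: 48 UGT genes and 15 GST genes. Of the GST genes, 11 belonged to the tau class (GSTU), 3 to the phi class (GSTF) and 1 to the lambda class (GSTL), and the theta and zeta classes had 0. RefSeq lists 106 genes with such symbols, and 40 of them, 7 UGT and 33 GST, had no probe set of their own among those used here. Most of the genes with a UGT symbol and a minority of those with a GST symbol were thus covered. Family members listed under other names were not counted, so the share of either whole family is not given.

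UGT enzymes move a sugar from a UDP-sugar onto a small molecule, such as a hormone, a flavonoid, a lignin precursor or a foreign compound, which makes it more soluble and often inactive or ready for storage in the vacuole. GST enzymes of the tau and phi classes join glutathione to reactive or foreign compounds, and many of their genes are known to be induced by herbicides, oxidants and pathogens. The lambda class acts in thiol-dependent reduction instead of conjugation.

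SSRP1 and SPT16 together form FACT, which travels with RNA polymerase II, opening nucleosomes ahead of it and restoring them behind it. The 3 genotypes shared the Col-0 background, an age of 10 days and growth on 0.5 MS plates without any treatment: ssrp1-2 mutants, spt16-1 mutants and wild-type Col-0 plants, each with 3 Affymetrix arrays. Every array carried 200 ng of RNA from a pool of several plants, about 100 mg of aerial parts, so cell types were mixed and each FACT subunit was represented by 1 mutant allele. The labels call the replicates biological, without stating if a genotype's pools were sown or plated apart, so p-values measure only the spread between these pools.

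Values are RMA log2 expression values, in which 1 unit is a 2-fold difference. A gene passed when its limma p-value, adjusted by Benjamini-Hochberg over all 28501 probe sets, was under 0.05. No probe set was named for SSRP1 or SPT16 in the annotation used here, so the genotype labels were not checked on the mutated genes. Of the 13 listed marker genes of green tissue, 0 had a probe set that named them alone in this annotation, and the labelled tissue was not checked on them. PYK10, a beta-glucosidase abundant in roots, was measured at 10.93, 10.77 and 10.82 in ssrp1-2, 11.47, 11.02 and 11.44 in spt16-1, and 11.19, 11.31 and 11.15 in Col-0. The arrays of ssrp1-2 lay below those of Col-0, without passing the test (log2 fold change -0.38, limma adjusted p = 0.199). The other measured genes of 14 root markers, the root-hair expansins EXPA7 and EXPA18, were measured near the low end of the scale, with log2 fold changes of -0.10 and 0.15 in ssrp1-2 and -0.10 and 0.30 in spt16-1, none past the threshold. The part of root tissue in any result below was not tested. In pooled tissue, fewer cells of a type and less RNA per cell cannot be told apart.

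Of these 63 genes, 1 passed in ssrp1-2 against Col-0: UGT72E1, a glucosyltransferase of lignin precursors, which rose. Of all probe sets 2.58% passed in this comparison, and 1.74% passed with a higher value. In spt16-1 against Col-0 limma called 0 of the 63, with 2.02% of all probe sets called and 6 members at an unadjusted p under 0.05. Between ssrp1-2 and spt16-1 limma again called 0 of the 63, against 0.835% of all probe sets, with 9 members at an unadjusted p under 0.05. An F test over the 3 genotypes also called 0 members, where 3.13% of all probe sets passed, and 10 members had an unadjusted p under 0.05.

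The shares of members at an unadjusted p under 0.05 were 19.0% in ssrp1-2 against Col-0, 9.52% in spt16-1 against Col-0 and 14.3% between the mutants. Over all probe sets the share was 14.4% in ssrp1-2 and 12.6% in spt16-1 against Col-0, and 3427 of the 28501 probe sets did so between the mutants. The members lay on both sides of the background, above it in ssrp1-2 and below it in spt16-1, and these shares were not tested.

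The intervals put a bound on what could have been missed. In ssrp1-2 against Col-0 the 95% limma interval lay inside a 2-fold change either way for 61 of the 63 genes (96.8%), and for 96.9% of all probe sets. The exceptions were UGT73C7 and UGT84B2, with intervals of -1.07 to -0.08 and 0.04 to 1.01. In spt16-1 against Col-0 all 63 intervals lay inside that range, beside 97.4% of all probe sets. In ssrp1-2 against spt16-1, 62 of 63 did, beside 97.4%, the exception being UGT73C1. A narrower bound of 1.5-fold held 44 of the 63 intervals in ssrp1-2 (69.8%) and 43 in spt16-1 (68.3%), where it held 79.1% and 81.3% of all probe sets, which left changes of this size undecided for the others. Of the 63 genes, 17 had a mean under 3.13, the bound of the lowest 25% of all probe sets by mean, and for these a change at low expression could not be told from background. They were 12 UGT and 5 GST genes, among them UGT72E2, UGT72E3, UGT84B1, GSTF3 and GSTU25.

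As groups, the families had medians near 0. The median log2 fold change of the 48 UGT genes was 0.02 in ssrp1-2 and 0.08 in spt16-1, both against Col-0. The 15 GST genes had medians of -0.04 and -0.06 in the same comparisons. All probe sets had medians of -0.00 and -0.01. Single genes spread from -0.57 to 0.61 in ssrp1-2 and from -0.44 to 0.45 in spt16-1, and 7 and 2 members lay outside the central 95% of all probe sets. Between ssrp1-2 and spt16-1 the UGT median was -0.06 and the GST median 0.04, with 7 members outside that central range. The median level of the UGT genes was 3.90, 3.74 and 3.86 on the ssrp1-2 arrays, 3.91, 4.06 and 3.92 on the spt16-1 arrays, and 3.93, 3.91 and 3.91 on the Col-0 arrays. These level medians were thus lower on all 3 ssrp1-2 arrays than on all 3 Col-0 arrays by small amounts, while spt16-1 overlapped Col-0. The median of the gene changes in ssrp1-2, 0.02, had the opposite sign, and 25 of the 48 UGT genes were positive. No decrease of the family is read from the level medians. The GST medians ran from 3.30 to 3.75 in ssrp1-2, 3.46 to 3.96 in spt16-1 and 3.75 to 3.996 in Col-0.

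**Figure D1:**
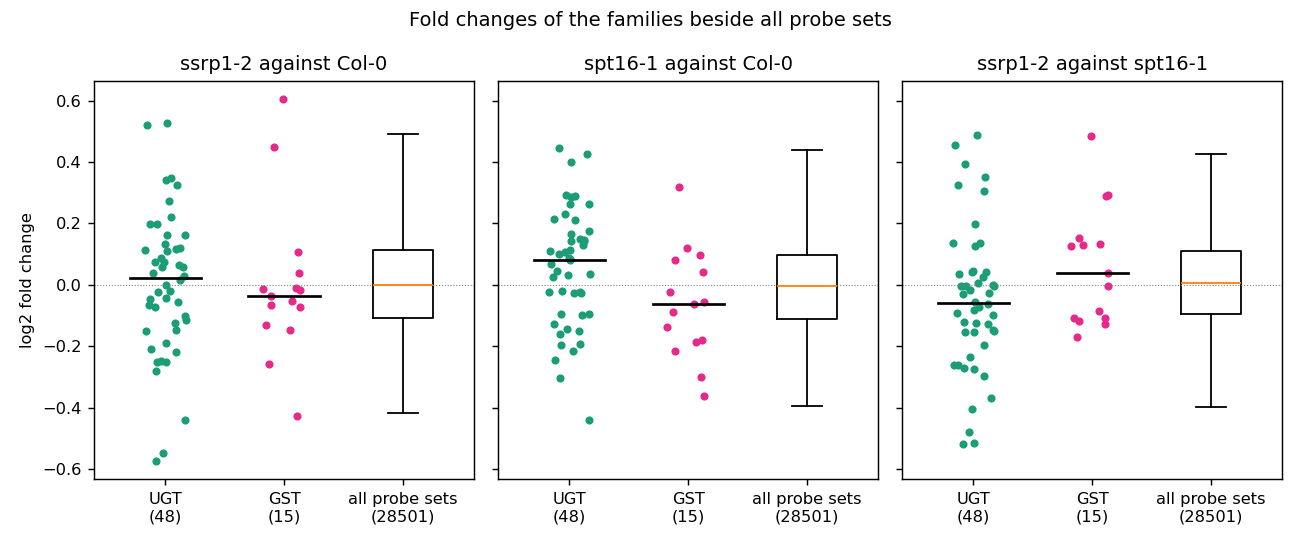
Log2 fold changes of the 48 UGT and 15 GST genes (points; black lines are family medians) in ssrp1-2 against Col-0, spt16-1 against Col-0 and ssrp1-2 against spt16-1, beside all 28501 probe sets (box from the lower to the upper quartile, whiskers spanning the central 95%). The family medians lie between -0.06 and 0.08, and 7, 2 and 7 of the 63 members lie outside the whiskers in these comparisons.

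Among the UGT genes that act on phenylpropanoids, UGT72E1 was the member that passed. UGT72E1 (AT3G50740, chromosome 3) glucosylates coniferyl and sinapyl aldehyde, which lie on the route to lignin. Its value was 7.52, 7.37 and 7.61 in ssrp1-2, 7.48, 7.27 and 7.37 in spt16-1, and 7.12, 7.03 and 6.77 in Col-0. Every array of either mutant was above every Col-0 array, and the mutants overlapped each other. UGT72E1 averaged 7.50 ± 0.12 in ssrp1-2 and 6.97 ± 0.18 in Col-0 (SD, n = 3 each), a 1.44-fold rise (log2 fold change 0.53, 95% interval 0.28 to 0.78, limma adjusted p = 0.0441). In spt16-1 it averaged 7.37 ± 0.11, with a log2 fold change of 0.40 (0.15 to 0.65) that did not pass (limma adjusted p = 0.139). The difference between the mutants was 0.13, with a limma adjusted p of 0.702, and both comparisons rest on the same Col-0 arrays. The call was lost when any 1 of the 9 arrays was left out, with limma adjusted p-values of 0.0535 to 0.141 and log2 fold changes of 0.43 to 0.60.

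The other genes of this role gave no call. UGT72E2 and UGT72E3, which glucosylate the lignin alcohols, had mean values of 2.47 and 2.13 in ssrp1-2 and 2.50 and 2.18 in Col-0, in the lowest 25% of probe sets. UGT84A3 and UGT84A4 make glucose esters of hydroxycinnamic acids. UGT84A3 had log2 fold changes of -0.15 in ssrp1-2 and 0.11 in spt16-1. Its neighbour UGT84A4, also in the lowest 25%, had 0.34 in ssrp1-2 and 0.14 in spt16-1, with limma adjusted p-values of 0.241 and 0.702.

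Among genes acting on hormones, UGT74D1 came closest to the threshold in both mutants, and its probe sets went opposite ways. UGT74D1 (AT2G31750, chromosome 2) glucosylates auxin and its oxidised form. On the probe set with the higher mean over the 9 arrays, it measured 5.51, 5.20 and 5.47 in ssrp1-2, 5.39, 5.26 and 5.53 in spt16-1, and 5.83, 5.80 and 5.87 in Col-0. All mutant arrays were below all Col-0 arrays. The log2 fold change was -0.44 in ssrp1-2 (-0.67 to -0.21, limma adjusted p = 0.062) and -0.44 in spt16-1 (limma adjusted p = 0.0731). The other probe set of the gene measured 5.73, 5.75 and 5.85 in ssrp1-2, 5.33, 5.48 and 5.40 in spt16-1, and 4.78, 5.42 and 5.19 in Col-0. Here the ssrp1-2 arrays were above all Col-0 arrays, with a log2 fold change of 0.65 (0.32 to 0.98, limma adjusted p = 0.0553), and spt16-1 overlapped Col-0 (0.28, limma adjusted p = 0.481). The signs of the probe sets were opposed in each mutant, so no direction is given for UGT74D1. RefSeq places a long non-coding RNA gene over UGT74D1, and which transcript each probe set detects was not tested.

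UGT84B1, which acts on auxin as well, was in the lowest 25%, at 1.58 in ssrp1-2, 1.54 in spt16-1 and 1.51 in Col-0. The cytokinin N-glucosyltransferases UGT76C1 and UGT76C2, adjacent genes on chromosome 5, had log2 fold changes of -0.28 and -0.21 in ssrp1-2 and -0.16 and -0.24 in spt16-1. UGT76C2 measured 5.14, 5.08 and 5.08 in ssrp1-2, 5.08, 5.03 and 5.08 in spt16-1, and 5.15, 5.77 and 5.003 in Col-0. The mutant arrays were close together and inside the range of Col-0, where the second array was the high one.

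UGT73C1, able to O-glucosylate cytokinins in vitro, differed most between the mutants among members above the lowest 25%. It measured 5.05, 4.63 and 4.67 in ssrp1-2, 5.39, 5.27 and 5.24 in spt16-1, and 4.32, 5.05 and 5.20 in Col-0. The spt16-1 arrays were above all others, and Col-0 was widely spread through 1 low array. In spt16-1 against Col-0 its log2 fold change was 0.45 (limma adjusted p = 0.446), or 0.18 without the first Col-0 array (limma adjusted p = 0.711). In ssrp1-2 against spt16-1 it was -0.52 (-1.01 to -0.03, limma adjusted p = 0.386). The abscisic acid glucosyltransferases UGT71B6, UGT71B8 and UGT71C5 had log2 fold changes between -0.05 and 0.16 in ssrp1-2. In spt16-1 they had changes between 0.17 and 0.29, the 0.17 being that of UGT71B8, which was in the lowest 25%. None passed, and the UGT71C5 arrays of spt16-1, 3.53 to 3.71, were above those of Col-0, 3.18 to 3.44. In all, 9 members had arrays of spt16-1 above all Col-0 arrays and 2 had them below, where 16.9% of all probe sets did not overlap, 8.53% above and 8.36% below.

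Of the 6 genes acting on salicylic acid and other defence signals, 0 passed in limma in either mutant, and 0 had an unadjusted p under 0.05. Of all probe sets 2.58% passed in ssrp1-2 and 2.02% in spt16-1, and 14.4% and 12.6% had an unadjusted p under 0.05. With 6 genes, counts of 0 are near those shares. They were UGT74F1, which glucosylates salicylic acid; UGT76B1, which glucosylates isoleucic acid, salicylic acid and N-hydroxypipecolic acid; UGT76D1, which acts on dihydroxybenzoic acids; UGT71C3, which acts on methyl salicylate; and UGT73B3 and UGT73B5, which take part in the hypersensitive response. Their log2 fold changes ran from -0.12 to 0.20 in ssrp1-2 and from -0.15 to 0.17 in spt16-1. UGT76B1 measured 3.78, 3.65 and 3.53 in ssrp1-2, 3.89, 3.39 and 3.84 in spt16-1, and 3.67, 3.63 and 3.31 in Col-0. The genotypes overlapped.

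UGT74B1, the glucosyltransferase of glucosinolate synthesis, had a log2 fold change of -0.11 in ssrp1-2 (-0.36 to 0.13) and 0.04 in spt16-1 (-0.21 to 0.28). UGT78D3, a flavonol arabinosyltransferase, had -0.02 and -0.03. UGT78D3 was listed at 3.52 on all 3 Col-0 arrays and UGT84A3 at 4.32, and 38 of the 63 genes (60.3%) had the same value on at least 2 arrays, as did 59.3% of all probe sets, so an SD of 0 in these files is not a measure of precision.

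UGT80B1, which glucosylates sterols, stood higher in spt16-1 than in the other genotypes. It measured 6.20, 6.02 and 5.97 in ssrp1-2, 6.25, 6.60 and 6.45 in spt16-1, and 5.93, 5.98 and 6.11 in Col-0. All spt16-1 arrays were above all others, the lowest of them by a small margin over 1 ssrp1-2 array. The log2 fold change was 0.43 in spt16-1 against Col-0 (0.18 to 0.67, limma adjusted p = 0.1), -0.37 in ssrp1-2 against spt16-1 (limma adjusted p = 0.206), and 0.06 in ssrp1-2 against Col-0. None of these passed.

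**Figure D2:**
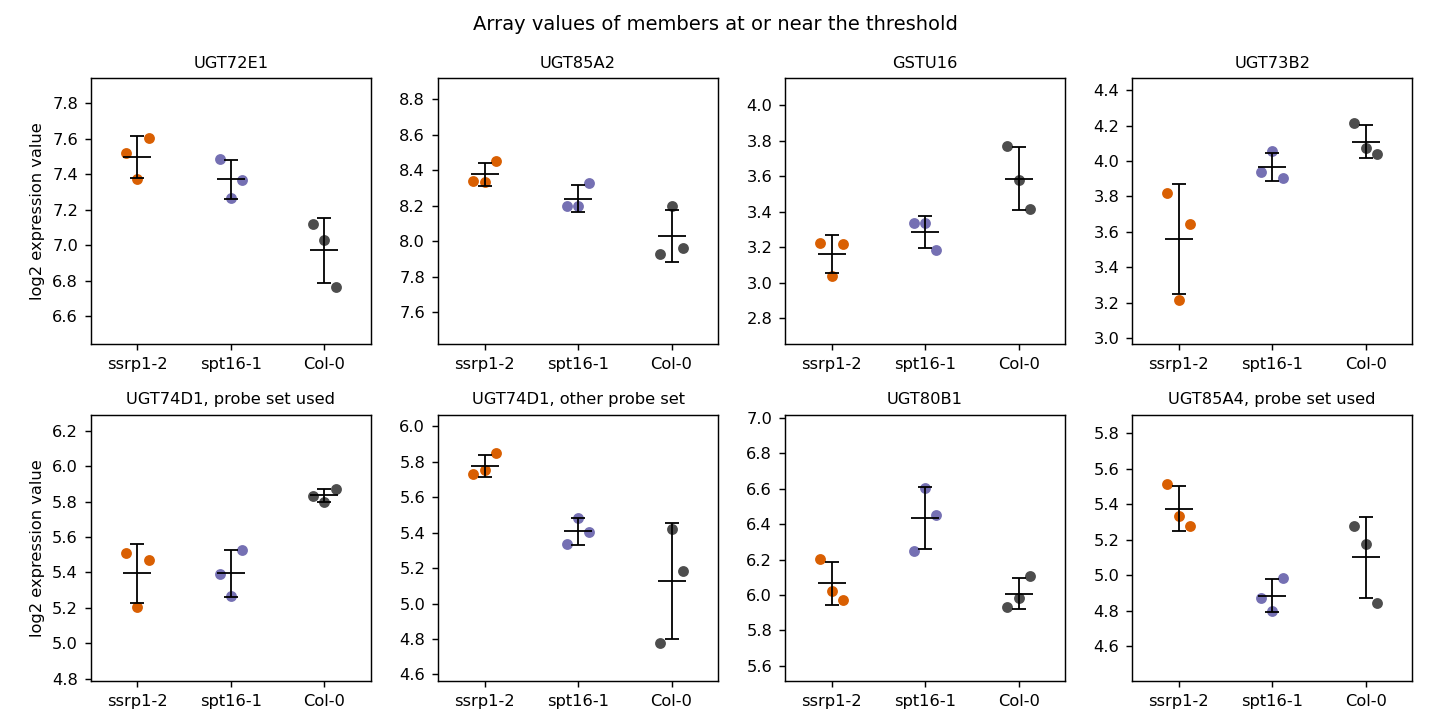
Log2 expression values of each array (points) with the mean and SD (bars, n = 3) for genes at or near the threshold, by genotype in the order ssrp1-2, spt16-1, Col-0; the y axis differs between panels. For UGT72E1 the mutant arrays lie between 7.27 and 7.61 and the Col-0 arrays between 6.77 and 7.12, while the probe sets of UGT74D1 lie on opposite sides of Col-0 in ssrp1-2.

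Some UGT genes had no role assigned here and lay near the threshold or differed most in size. Their values in single arrays are given because they stood out, a choice made after the values were seen. UGT85A2 had the highest mean of the UGT genes. It measured 8.34, 8.34 and 8.45 in ssrp1-2, 8.20, 8.20 and 8.33 in spt16-1, and 7.93, 8.20 and 7.96 in Col-0. The ssrp1-2 arrays were above all others, and the log2 fold change against Col-0 was 0.35 (0.15 to 0.55, limma adjusted p = 0.0933). In spt16-1 it was 0.21 (0.01 to 0.41, limma adjusted p = 0.371). UGT88A1 and UGT71C4, the next by mean, had log2 fold changes of -0.04 and 0.09 in ssrp1-2 and 0.11 and 0.11 in spt16-1.

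UGT73B2 measured 3.82, 3.22 and 3.64 in ssrp1-2, 3.94, 4.05 and 3.91 in spt16-1, and 4.21, 4.07 and 4.04 in Col-0. The ssrp1-2 arrays were below the arrays of both other genotypes and were the most spread. Against Col-0 it stood at a log2 fold change of -0.55 in ssrp1-2 (-0.87 to -0.23, limma adjusted p = 0.0965) and -0.14 in spt16-1 (limma adjusted p = 0.746). UGT73C7 had -0.57 in ssrp1-2 with overlapping arrays (limma adjusted p = 0.271), or -0.38 without the first Col-0 array. Arrays of ssrp1-2 lay above all Col-0 arrays for 7 members and below them for 4, where 17.5% of all probe sets did not overlap, 9.37% above and 8.18% below.

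Between the mutants, UGT85A4 and UGT71B1 had the smallest p-values. UGT85A4 measured 5.52, 5.33 and 5.28 in ssrp1-2, 4.87, 4.80 and 4.99 in spt16-1, and 5.28, 5.18 and 4.84 in Col-0. The ssrp1-2 arrays were above those of spt16-1, with Col-0 overlapping both, and the log2 fold change was 0.49 (0.21 to 0.77, limma adjusted p = 0.141). Its other probe set gave -0.04 in the same comparison (limma adjusted p = 0.897).

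UGT71B1 measured 5.93, 5.75 and 5.86 in ssrp1-2, 6.35, 6.32 and 6.43 in spt16-1, and 6.38, 5.80 and 6.12 in Col-0. The mutants did not overlap, and Col-0 covered the gap between them. The log2 fold change of ssrp1-2 against spt16-1 was -0.51 (-0.82 to -0.21, limma adjusted p = 0.16). Between the mutants 5 members had ssrp1-2 above and 5 below spt16-1 without overlap, where 15.4% of all probe sets did not overlap, 8.27% above and 7.16% below.

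The GST genes gave 0 calls in limma in each comparison. Of all probe sets 2.58% passed in ssrp1-2 and 2.02% in spt16-1, both against Col-0, and 0.835% between the mutants. With 15 genes, counts of 0 are near those shares. At an unadjusted p under 0.05 there were 3, 2 and 1 of the 15 in ssrp1-2, in spt16-1 and between the mutants. Over all probe sets 14.4% and 12.6% did so against Col-0, and 3427 of 28501 between the mutants. The differences from these shares were not tested. GSTL3 and GSTU20 had the highest means. GSTL3, of the lambda class, measured 10.65, 10.62 and 10.49 in ssrp1-2, 10.71, 10.63 and 10.73 in spt16-1, and 10.62, 10.59 and 10.57 in Col-0. Its log2 fold change was -0.01 in ssrp1-2 (-0.17 to 0.15) and 0.10 in spt16-1 (-0.06 to 0.25), intervals that exclude a 1.5-fold change. GSTU20, which binds the jasmonate-conjugating enzyme JAR1 and is linked to glucosinolate synthesis, measured 10.18, 10.22 and 10.11 in ssrp1-2, 10.36, 10.20 and 10.27 in spt16-1, and 10.37, 10.28 and 10.25 in Col-0. The ssrp1-2 arrays were just below those of Col-0, with a log2 fold change of -0.13 (-0.29 to 0.03, limma adjusted p = 0.459), and spt16-1 overlapped Col-0 (-0.02). GSTU27, the next by mean, had -0.01 in ssrp1-2 and -0.14 in spt16-1.

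GSTU16 had the smallest p-value of the GST genes. It measured 3.23, 3.04 and 3.22 in ssrp1-2, 3.34, 3.34 and 3.18 in spt16-1, and 3.77, 3.58 and 3.41 in Col-0. All mutant arrays were below all Col-0 arrays, close to the bound of the lowest 25%. The log2 fold change was -0.43 in ssrp1-2 (-0.66 to -0.19, limma adjusted p = 0.0794) and -0.30 in spt16-1 (limma adjusted p = 0.258).

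The adjacent genes GSTU25 and GSTU26 on chromosome 1 both had higher values in ssrp1-2, without passing. GSTU25, whose enzyme acts on the explosive TNT, measured 3.15, 2.82 and 3.38 in ssrp1-2, 2.51, 2.70 and 2.69 in spt16-1, and 2.34, 2.41 and 2.79 in Col-0, in the lowest 25% by mean. The ssrp1-2 arrays were above the others, and the log2 fold change was 0.61 (0.24 to 0.97, limma adjusted p = 0.11). GSTU26 measured 5.68, 5.21 and 5.11 in ssrp1-2, 5.37, 5.21 and 5.03 in spt16-1, and 5.07, 4.81 and 4.76 in Col-0, with log2 fold changes of 0.45 in ssrp1-2 (limma adjusted p = 0.242) and 0.32 in spt16-1 (limma adjusted p = 0.471).

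**Figure D3:**
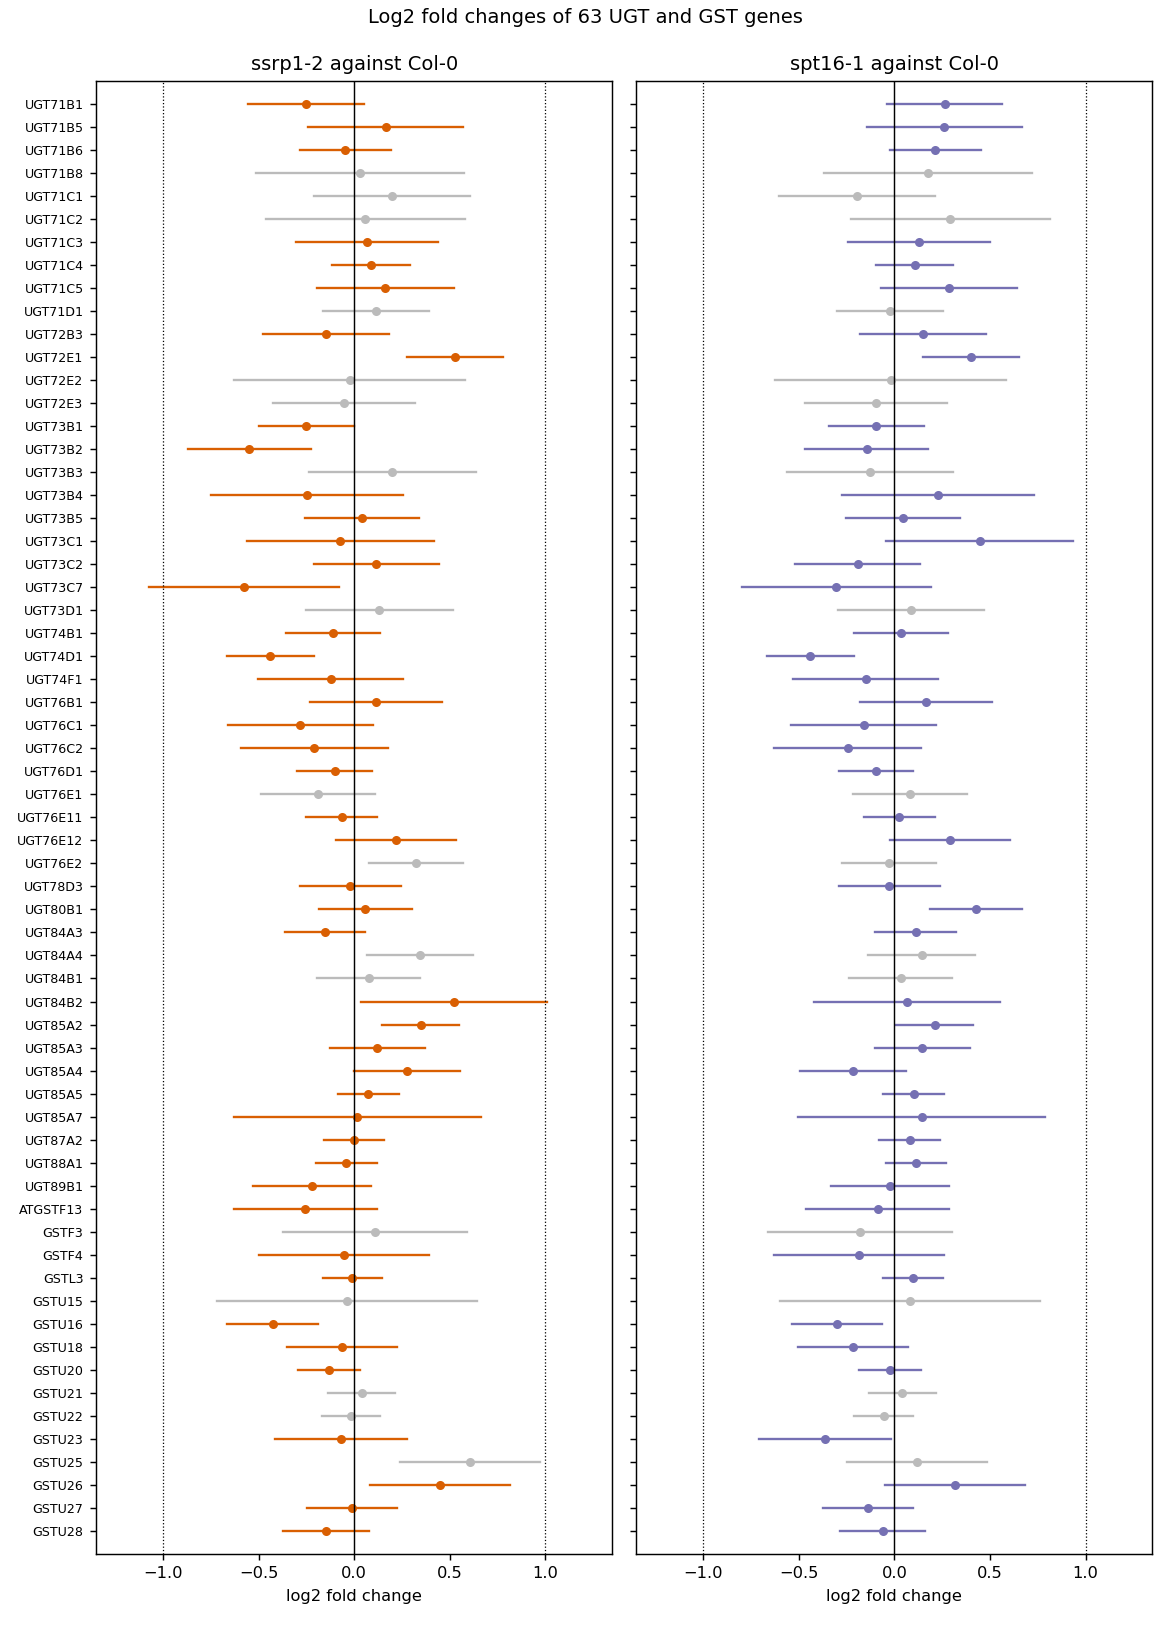
Log2 fold changes (points) with 95% limma intervals (lines) of all 63 genes in ssrp1-2 (left) and spt16-1 (right) against Col-0; grey marks the 17 genes in the lowest 25% of probe sets by mean, and dotted lines mark a 2-fold change. Intervals stay inside the dotted lines for 61 genes in ssrp1-2 and 63 in spt16-1, with UGT73C7 and UGT84B2 just past them in ssrp1-2.

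Many of these genes lie in tandem. Of the 63, 32 fell into 13 runs of adjacent genes in the RefSeq annotation, such as UGT85A7, UGT85A2, UGT85A5 and UGT85A3, or GSTU23, GSTU22, GSTU21 and GSTU20. All genes of a run had log2 fold changes of 1 sign in 6 of the 13 runs in ssrp1-2 and in 8 of the 13 in spt16-1. Most of the runs are pairs, whose genes can share a sign without any link. The share among other adjacent genes was not measured, so no coordination is read from these counts. The UGT85A run was positive throughout, at 0.02, 0.35, 0.07 and 0.12 in ssrp1-2 and 0.14, 0.21, 0.10 and 0.15 in spt16-1. The run of UGT73B3, UGT73B2 and UGT73B1 was mixed in ssrp1-2, at 0.20, -0.55 and -0.25, and negative in spt16-1, at -0.13, -0.14 and -0.10. Neighbours in a run are close paralogs, and whether their probes bind each other's transcripts was not tested.

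By subfamily, the UGT85 genes were positive in 5 of 5 cases in ssrp1-2, with a median log2 fold change of 0.12, and in 4 of 5 in spt16-1, with a median of 0.14 and UGT85A4 at -0.22. The other probe set of UGT85A4 gave 0.12 in spt16-1 and 0.08 in ssrp1-2, so the sign of this exception depended on the probe set. The UGT71 genes were positive in 8 of 10 cases in each mutant, with medians of 0.08 in ssrp1-2 and 0.19 in spt16-1, against the same Col-0 arrays. In the UGT73 genes, 4 of 9 were positive in each mutant, with medians of -0.07 in ssrp1-2 and -0.10 in spt16-1. The tau class GST genes were negative in 8 of 11 cases in ssrp1-2 and 7 of 11 in spt16-1, with medians of -0.04 and -0.06. Over all probe sets, 49.9% and 48.5% were positive in ssrp1-2 and spt16-1.

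UGT74D1, UGT85A4, UGT71B6 and UGT76E12 had a pair of probe sets each, and RefSeq places a long non-coding RNA over all 4. In UGT71B6, whose other probe set was in the lowest 25%, the pair gave -0.05 and -0.04 in ssrp1-2 and 0.21 and 0.21 in spt16-1. UGT76E12 gave 0.22 with the probe set used and 0.06 with the other, also in the lowest 25%, in ssrp1-2, and 0.29 and -0.03 in spt16-1. In all, 9 of the 63 genes overlap a long non-coding RNA gene and 10 overlap a protein-coding gene, so for these a neighbour's transcript could contribute to the value. UGT73B4 with UGT73B5, and UGT71C3 with UGT71C4, overlap each other.

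**Figure D4:**
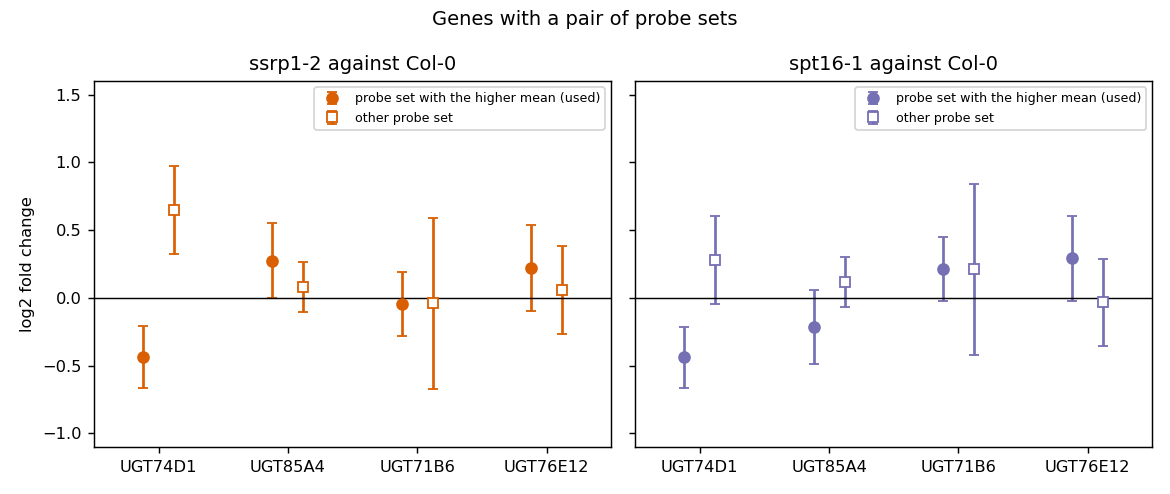
Log2 fold changes with 95% limma intervals from the probe set with the higher mean (filled circles) and the other probe set (open squares) of UGT74D1, UGT85A4, UGT71B6 and UGT76E12, in ssrp1-2 (left) and spt16-1 (right) against Col-0. The UGT74D1 probe sets lie at -0.44 and 0.65 in ssrp1-2, and those of UGT71B6 nearly coincide.

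Around the enzymes, few genes of the supply and transport machinery had a probe set that named them alone in the annotation. Of the 28501 probe sets, 11779 named no gene or several genes. A gene detected only by such probe sets counts as not measured here. Of 13 lists of related and marker genes, 4 had 0 measured members: the green tissue markers, the ABCC transporters that carry glutathione conjugates into the vacuole, the glutathione peroxidases, and the TGA factors with their detoxification response. USP, a UDP-sugar pyrophosphorylase and 1 of 28 listed genes of UDP-sugar supply, had log2 fold changes of 0.04 in ssrp1-2 and 0.07 in spt16-1. GR, a glutathione reductase and 1 of 15 genes of glutathione supply, had -0.13 and -0.17, and AT5G52050, 1 of 8 listed MATE transporters, had 0.34 and -0.17. None of these passed.

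The beta-glucosidases, which remove glucose from conjugates, had 24 of 47 listed genes measured. Of these 0 passed in ssrp1-2 in limma, where 2.58% of all probe sets passed. In spt16-1, 1 passed: BGLU44, which rose, where 1.21% of all probe sets passed with a higher value. At an unadjusted p under 0.05 there were 6 of the 24 in ssrp1-2 and 6 in spt16-1. Over all probe sets the shares were 14.4% and 12.6%, and the difference was not tested. BGLU44 measured 10.49, 10.54 and 10.54 in ssrp1-2, 10.84, 10.83 and 10.76 in spt16-1, and 10.13, 10.36 and 10.38 in Col-0. The genotypes did not overlap. Its log2 fold change against Col-0 was 0.52 in spt16-1 (limma adjusted p = 0.0138) and 0.23 in ssrp1-2 (limma adjusted p = 0.232), and the call in spt16-1 was lost without its first or its second array (limma adjusted p = 0.0574 and 0.0635), and with spt16-1 and Col-0 fitted alone (limma adjusted p = 0.0635). The list medians, 0.04 in ssrp1-2 and 0.05 in spt16-1, were near those of all probe sets.

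BGLU47, BGLU46 and BGLU45 were picked for description after their values were seen. BGLU47 measured 5.90, 6.26 and 5.89 in ssrp1-2, 6.11, 6.01 and 5.92 in spt16-1, and 6.72, 6.47 and 6.47 in Col-0. All mutant arrays were below all Col-0 arrays, and the log2 fold change was -0.54 in ssrp1-2 (limma adjusted p = 0.0583) and -0.54 in spt16-1 (limma adjusted p = 0.0659), neither of which passed. Both passed with an intensity trend (limma adjusted p = 0.0259 and 0.0274) and with the lowest 25% of probe sets left out (0.0388 and 0.0441). Neither passed with a replicate block (limma adjusted p = 0.0948 and 0.112) or with 2 genotypes fitted alone (0.147 and 0.076). With 1 array left out, 8 of 9 fits in each mutant did not pass, with limma adjusted p up to 0.167 and 0.197. BGLU45 and BGLU46 hydrolyse glucosides of lignin alcohols. BGLU46 measured 4.98, 4.61 and 5.11 in ssrp1-2, 4.53, 4.45 and 4.53 in spt16-1, and 4.53, 4.18 and 4.40 in Col-0. Its log2 fold change was 0.53 in ssrp1-2 (limma adjusted p = 0.0951) and 0.13 in spt16-1, and the ssrp1-2 arrays were above all others. Without the second ssrp1-2 array the ssrp1-2 difference of BGLU46 passed (0.68, limma adjusted p = 0.0289). Of the 9 fits with 1 array left out, 8 did not pass, with limma adjusted p up to 0.248. A fit of ssrp1-2 and Col-0 alone did not pass either (limma adjusted p = 0.228). BGLU45, in the lowest 25%, had 0.36 in ssrp1-2 (limma adjusted p = 0.464) and 0.77 in spt16-1 (limma adjusted p = 0.116).

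SAG101, a partner of EDS1 in defence and the measured gene of 15 listed for salicylic acid response, rose in ssrp1-2. It measured 5.21, 5.31 and 5.27 in ssrp1-2, 4.88, 5.10 and 5.15 in spt16-1, and 4.85, 4.69 and 4.90 in Col-0. The ssrp1-2 arrays were above all others, and spt16-1 overlapped Col-0. The log2 fold change was 0.45 in ssrp1-2 (limma adjusted p = 0.0373) and 0.23 in spt16-1 (limma adjusted p = 0.329). Leaving out 1 array at a time moved the ssrp1-2 adjusted p in limma between 0.0316 and 0.12, and 7 of the 9 such fits lost the call, as did a fit of ssrp1-2 and Col-0 alone (limma adjusted p = 0.0613).

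Of marker genes of single cell types, TRY, a repressor of trichome fate and 1 of 4 trichome markers, had log2 fold changes of -0.46 in ssrp1-2 and -0.75 in spt16-1 (limma adjusted p = 0.334 and 0.117). SPCH, which starts the stomatal lineage, had -0.17 in ssrp1-2 and -0.27 in spt16-1. Of 3 measured among 6 guard cell markers, SPCH had the smallest p in spt16-1, and FMA had it in ssrp1-2, with -0.19. CLV3, 1 of 7 shoot meristem markers, was in the lowest 25% with 0.05 and 0.07. None passed, and their part in the values of the UGT and GST genes was not tested.

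Genes known as UGT by another name only were outside the rule. Of 4 such genes, SGT (also UGT80A2), GT72B1 (also UGT72B1) and AT5G54010 (also UGT79B6) did not pass, with log2 fold changes from -0.10 to 0.11 in ssrp1-2 and from -0.07 to 0.18 in spt16-1. UF3GT (also UGT79B1), which adds a sugar to anthocyanins, measured 5.06, 4.78 and 4.25 in ssrp1-2, 5.15, 4.83 and 5.10 in spt16-1, and 6.24, 6.002 and 6.32 in Col-0. All mutant arrays were far below all Col-0 arrays. UF3GT fell by 1.49 on the log2 scale in ssrp1-2 and by 1.16 in spt16-1 (limma adjusted p = 0.0052 and 0.0202). Of all 28501 probe sets, 239 passed with a lower value in ssrp1-2 and 230 in spt16-1. The fall of UF3GT in ssrp1-2 was larger in size than the change of any of the 63 genes in any comparison, the largest of which was 0.61.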

How the data were processed

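The submitters' processing notes name RMA and Affymetrix Expression Console 1.3 as the authors' tools, and the deposited file holds a log2 expression value for every probe set on every array. RMA brings the arrays to a common distribution, so a change in total RNA would not be visible. Array medians were 4.95 to 4.98, and no scaling was added. Precision is limited by the number of arrays.

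All 9 arrays and 28501 probe sets were fitted once with limma 3.58.1 in R 4.3.3 (lmFit, eBayes, two-sided; 6 residual degrees of freedom), with 3 contrasts and Benjamini-Hochberg adjustment over all probe sets within a contrast. The fit was tested on simulated data. Genes were named by GEO's platform annotation; 63 of 63 members matched RefSeq (TAIR10.1), used for names and neighbours only, since no source used here names a genome build. Where a gene had several probe sets, the one with the highest mean was used.

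Genes named are members that passed; per comparison the 2 with the smallest adjusted p and the 2 above the lowest 25% by mean with the largest change among those not called; the 3 UGT and 3 GST genes with the highest mean; and of each related list those called or the 1 with the smallest p. Others are described by role, run or overlap, and BGLU47, BGLU46 and BGLU45 were picked after their values were seen. The members and lists were chosen with earlier results of these data known. Sequences were not used here. The settings tried instead were an intensity trend, a replicate block, each mutant with Col-0 alone, leaving out the lowest 25% of probe sets, quantile normalization, median centring, the mean of a gene's probe sets, its other probe set, and leaving out each array in turn.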

Additional observations from a re-analysis of the deposited data

How the results depend on the processing

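The number of members called in ssrp1-2 against Col-0, 1 as reported, was 0 with a replicate block, 0 with those genotypes fitted alone, 3 with an intensity trend (UGT72E1, UGT74D1 and UGT85A2), and 2 each with the lowest 25% left out, quantile normalization or median centring (UGT72E1 and UGT74D1), and it was 0 to 0 when 1 array was left out. In spt16-1 against Col-0, 0 as reported, it was 1 with the intensity trend, 1 with the lowest 25% left out and 0 to 1 with 1 array left out, the call being UGT74D1 without the second ssrp1-2 array. Between the mutants it was 0 under all settings. With the replicate block the adjusted p of UGT72E1 in limma was 0.0774, and that of SAG101 0.0741. Replicate numbers did not pair the samples: over 9 pairs, same-numbered arrays deviated with correlations of -0.14 to 0.07. UGT74D1 turned to 0.11 in ssrp1-2 with the mean of its probe sets, and to 0.65 in ssrp1-2 and 0.28 in spt16-1 with its other probe set; UGT85A4 turned to -0.039 between the mutants with its other probe set. These other-probe-set values were chosen after seeing the data, and the cause of the changes was not tested. Calls over all probe sets in ssrp1-2 moved from 735 to 1190 with the trend, 399 with 2 genotypes alone and 405 to 625 with 1 array left out; in spt16-1 from 576 to 1024, 271, 380 with the block and 293 to 479; and between the mutants from 238 to 497, 80, 117 with the block and 91 to 167. The family medians, recomputed with the lowest 25% left out, both scalings, the mean of a gene's probe sets and 1 array left out, moved by less than the spread between replicates; the UGT median in ssrp1-2 became -0.03 with the lowest 25% left out, and the GST median between the mutants ranged from -0.02 to 0.07 with 1 array left out. With 3 arrays per genotype, changes of 1.5-fold were undecided for the genes with wider intervals, and low signal limited 17 genes.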
